A study of Homo sapiens with 4 samples.

Results

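S100A4, S100A6, S100A8, S100A9, S100A10, S100A11 and S100A12 were described in human microglia-like cells grown from embryonic stem cells. These 7 genes were taken by symbol from the 36601 genes of the count matrices, and all 7 passed the filter on low counts. They were chosen with earlier results of these data known. H9 embryonic stem cells, a long-established human line, were the source of all cultures, which are a model of microglia in a dish rather than cells from a brain. Monocyte-like cells were harvested on day 25 of differentiation and matured at 500000 cells per well for 7 days in a medium with TGF-β, IL-34 and cholesterol. The 4 conditions (named Ctrl, Sema, LPS and SemaLPS in the labels) had 3 cultures each, 12 in all, which the series calls biological replicates.

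Ctrl cultures received DMSO, the solvent, for 22 h and PBS for the last 6 h. Sema cultures received semagacestat, an inhibitor of the protease γ-secretase, at 2 µM for the same 22 h, with PBS at the end. LPS cultures received DMSO, and lipopolysaccharide (LPS, a bacterial cell wall component sensed by TLR4) at 200 ng/mL for the last 6 h. SemaLPS cultures received both agents. All were collected in actinomycin D (5 µM), a transcription blocker. About 2000 cells per culture were tagged with a culture-specific hashtag antibody, pooled, divided into 2 droplet libraries and sequenced from the 3′ end of each mRNA. The series asked what the inhibitor does at rest and whether a strong signal such as LPS overrides it.

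S100 proteins are small proteins with a pair of EF-hand motifs that work mostly as dimers inside the cell. Most of them bind calcium, which opens a surface that binds target proteins. S100A8, S100A9 and S100A12, the calgranulins, are known from neutrophils and monocytes. S100A8 and S100A9 form the heterodimer calprotectin, which binds zinc and manganese and, once released, acts on innate immune receptors. S100A10 binds annexin A2 at the plasma membrane, S100A11 binds annexin A1, S100A4 binds non-muscle myosin, and S100A6 binds the calcyclin-binding protein CACYBP.

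All 7 genes lie on chromosome 1 (GENCODE release 29, GRCh38). S100A10 spans 151982915 to 151994390 and S100A11 spans 152032506 to 152047907, both on the minus strand. The calgranulin genes sit together: S100A9 at 153357854 to 153361027 on the plus strand, S100A12 at 153373706 to 153375649 and S100A8 at 153390032 to 153391188, both on the minus strand, in 33.3 kb from end to end. S100A6 spans 153534599 to 153536244 and S100A4 spans 153543613 to 153550136, both on the minus strand. The S100A3 gene lies within the S100A4 gene on the same strand, so the counts of S100A3 are uncertain.

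The sequences below are the 30-base windows around the TATA motif of the 4 members whose promoter holds one, shown because the 3 calgranulins, which rose together with LPS, are among them. They come from RefSeq on GRCh38.p14, read 5′ to 3′ on the gene's strand, with the motif TATAAA in capitals.
S100A9: agtgccccagtcaggagctgccTATAAAtg
S100A8: gcagctggccaagcctaaccgcTATAAAaa
S100A12: ctaagatgaagcctgaactgatTATAAAac
S100A4: tatgggcagggcctggctggggTATAAAta
The windows are chr1:153357803-153357832 on the plus strand for S100A9, and on the minus strand chr1:153391095-153391124 for S100A8, chr1:153375622-153375651 for S100A12 and chr1:153545830-153545859 for S100A4. The motif begins 29 bases before the RefSeq start of S100A9 and of S100A8 (the start used of 3), 31 before that of S100A4 and 8 before that of S100A12. For S100A8 the first listed start has no TATAAA in its window, and the third has it 126 bases before. The like distance in S100A8 and S100A9 thus depends on the start chosen. For S100A4, S100A8 and S100A12 the GENCODE gene begins further 5′, so these windows lie wholly or almost wholly inside its bounds. The motif was searched on both strands in the 250 bases before each start, and these letters were not found for S100A6, S100A10 or S100A11. Of 35116 promoter windows in the table, 10.72% hold TATAAA on either strand and 6.8% on the gene's strand, so a match describes these letters and does not show a site in use.

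After hashtag and quality filters 14833 cells were kept of 28943 barcodes. Each culture gave 1054 to 1640 cells and 30006490 to 51021705 UMIs (molecules counted once by their barcode), with a median of 27294 to 31354.5 UMIs per cell. Cells with over 10% mitochondrial UMIs, which were left out, made up 20.24% to 32.11% of single-hashtag barcodes in cultures with LPS and 26.8% to 39.21% in those without. Libraries 1 and 2 shared 91 barcodes, and 20 kept cells carry one of them. CPM is the UMI count scaled by library size and TMM factor, which sets cultures to a common scale from their shared genes. The marker levels given here were scaled by library size alone. Of 12 microglia markers 11 passed the filter, with a summed level of 4940 to 5527 CPM in Ctrl and 4848 to 5274 CPM in LPS. The sum hides opposite changes: by edgeR on that scale 1 of the 11 rose and 7 fell with LPS, beside 2464 and 7016 of 15057 genes. Mean C1QB went from 1276 to 1763 CPM, P2RY12 from 27.7 to 3.87 CPM and GPR34 from 288 to 42.4 CPM. TMEM119 averaged 2.04 CPM and SALL1, with 13 UMIs in all, was close to absent. Monocyte markers, 7 of 8 passing, summed to 277 to 312 CPM in Ctrl and 305 to 355 CPM in LPS. Of 11 markers of neutrophils and their precursors 5 passed, and the list summed to 3.90 to 5.45 CPM in Ctrl and 1.28 to 2.05 CPM in LPS, with ELANE and MPO at 0 in all cultures. Epithelial markers (4 of 6 passing, KRT5 at 0) summed to 63.9 to 69.6 CPM in Ctrl and 35.6 to 42.8 CPM in LPS, endothelial ones (2 of 5) to 78.0 to 98.6 and 34.5 to 47.8 CPM, neural ones (4 of 5, DCX at 0) to 26.8 to 34.7 and 17.6 to 20.8 CPM, and those of dividing cells (8 of 8) to 312 to 563 and 209 to 304 CPM. Fibroblast markers (3 of 6) gave 3.14 to 30.1 and 4.26 to 5.74 CPM, mast cell markers (1 of 6) at most 1.52 CPM, and no erythroid, megakaryocyte or pluripotency marker passed. The part of these lists in the members' changes was not tested.

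LPS raised the calgranulins more than any other member. S100A9, the larger calprotectin subunit, was at 153.5, 179.3 and 169.8 CPM in Ctrl cultures 1, 2 and 3 and at 917.9, 870.0 and 855.4 CPM in the LPS cultures. With the inhibitor present throughout, S100A9 stood at 168.7, 190.6 and 190.4 CPM without LPS and at 953.6, 953.0 and 833.9 CPM with it. Every culture with LPS lay above every culture without it, and the inhibitor made no such separation. LPS against Ctrl, S100A9 rose 5.26-fold (log2 fold change 2.39, SE 0.07, adjusted p = 4.9e-12, edgeR), and SemaLPS against Sema it rose 4.99-fold (log2 2.32, adjusted p = 6.4e-12).

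S100A8, its dimer partner, was at 39.6, 51.0 and 46.1 CPM in Ctrl and at 236.8, 274.1 and 261.6 CPM in LPS. The Sema cultures had 43.6, 56.2 and 52.5 CPM of S100A8 and the SemaLPS cultures 254.1, 261.3 and 233.5 CPM. The groups with and without LPS again did not overlap. S100A8 rose 5.65-fold with LPS (log2 2.498, SE 0.10, edgeR adjusted p = 1.2e-10) and 4.92-fold with LPS in the presence of the inhibitor (log2 2.30, adjusted p = 2.3e-10).

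S100A12, a ligand of the receptor AGER, was the scarcest member. It was at 1.91, 1.24 and 1.44 CPM in Ctrl, on 63, 40 and 48 UMIs, and at 13.8, 9.43 and 12.0 CPM in LPS. Sema cultures held 1.10, 0.941 and 1.37 CPM of S100A12 and SemaLPS cultures 14.2, 11.4 and 11.6 CPM. No culture with LPS overlapped one without. The rise was 7.67-fold in LPS against Ctrl (log2 2.94, SE 0.18, edgeR adjusted p = 1.0e-08) and 10.7-fold in SemaLPS against Sema (log2 3.42, adjusted p = 2.0e-09). By mean level the conditions ran Sema, Ctrl, LPS, SemaLPS for S100A12, Ctrl, Sema, LPS, SemaLPS for S100A9, and Ctrl, Sema, SemaLPS, LPS for S100A8. In each order the first pair and the last pair did not differ beyond their spread.

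The ratio of S100A9 to S100A8 UMIs was 3.69 ± 0.18 in Ctrl (SD, n = 3), 3.63 ± 0.24 in Sema, 3.44 ± 0.38 in LPS and 3.66 ± 0.09 in SemaLPS. These ranges overlap, so the calprotectin subunits moved nearly in proportion. Over all 7 members the sum was 0.757% to 0.826% of a culture's UMIs in every condition. Within that sum, the calgranulins' share went from 2.89% ± 0.26 in Ctrl and 3.22% ± 0.32 in Sema to 13.2% ± 0.46 in LPS and 13.6% ± 1.06 in SemaLPS (SD, n = 3 each).

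**Figure D1:**
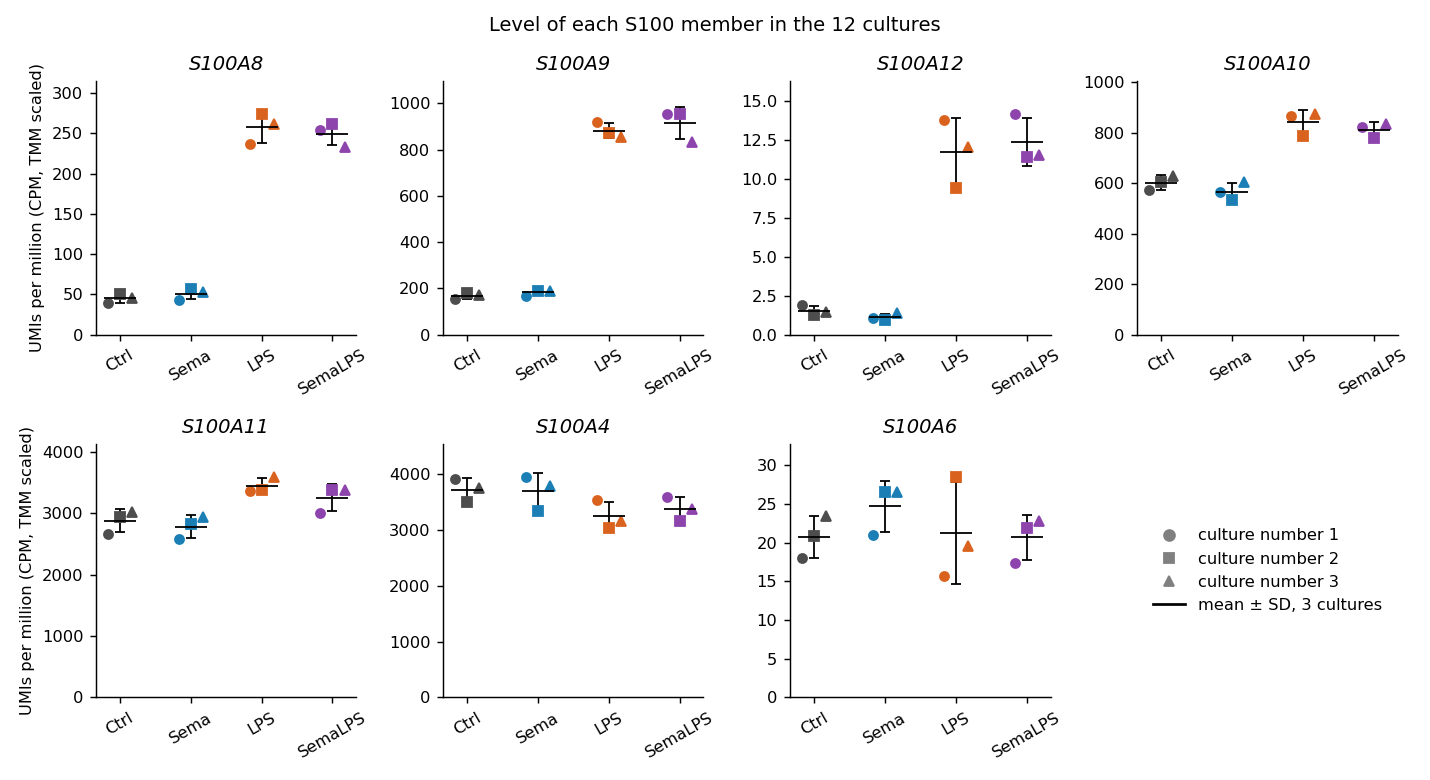
Level of each member in CPM (linear axis from 0, TMM scaled) in the 12 cultures, with the mean and SD of 3 cultures per condition as bars and the culture number as marker shape. S100A8, S100A9, S100A12, S100A10 and S100A11 are higher with LPS, and the Ctrl and Sema cultures of S100A9 (153.5 to 190.6 CPM) lie together far below those with LPS (833.9 to 953.6 CPM).

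S100A10 and S100A11, the annexin-binding members, rose less. S100A10, which joins annexin A2 in a heterotetramer, was at 574.9, 604.1 and 630.8 CPM in Ctrl and at 866.2, 787.1 and 874.5 CPM in LPS. It stood at 565.8, 532.8 and 603.7 CPM in Sema and at 824.9, 778.0 and 835.2 CPM in SemaLPS. The cultures with LPS were all above those without. S100A10 rose 1.40-fold in LPS against Ctrl (log2 0.48, SE 0.05, edgeR adjusted p = 4.2e-06) and 1.43-fold in SemaLPS against Sema (log2 0.52, adjusted p = 1.9e-06). In mean level the order was Sema, Ctrl, SemaLPS, LPS.

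S100A11 had 2669, 2946 and 3030 CPM in Ctrl and 3371, 3388 and 3597 CPM in LPS. In the presence of the inhibitor it had 2576, 2832 and 2947 CPM without LPS and 2999, 3379 and 3381 CPM with it. In mean level the order was Sema, Ctrl, SemaLPS, LPS. LPS and Ctrl cultures did not overlap, nor did SemaLPS and Sema cultures, although SemaLPS culture 1 lay below Ctrl culture 3. The rise was 1.20-fold (log2 0.26, SE 0.06, edgeR adjusted p = 0.0024) and, with the inhibitor, 1.17-fold (log2 0.22, adjusted p = 0.0063). The calls for S100A11 rest on the TMM scaling. Scaled to library size alone, S100A11 differed by log2 0.05 in LPS against Ctrl (edgeR adjusted p = 0.3749) and by log2 0.01 in SemaLPS against Sema (adjusted p = 0.832).

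That scaling, chosen after seeing the data, moved the median of all genes from -0.02 to -0.22 (log2) in LPS against Ctrl and from -0.02 to -0.23 in SemaLPS against Sema. TMM factors were 1.05 to 1.09 in cultures without LPS and 0.92 to 0.95 in those with it. The split of calls in LPS against Ctrl went from 4563 genes up and 4338 down to 2464 up and 7016 down, and in SemaLPS against Sema from 4655 up and 4548 down to 2577 up and 7244 down. S100A8, S100A9, S100A12 and S100A10 kept their direction and call under it, at log2 2.29, 2.19, 2.73 and 0.27 in LPS against Ctrl and at 2.09, 2.11, 3.21 and 0.31 in SemaLPS against Sema.

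S100A4, which binds non-muscle myosin and is linked to cell motility, was the member that fell. It was at 3909, 3498 and 3754 CPM in Ctrl and at 3534, 3038 and 3149 CPM in LPS. Sema cultures had 3949, 3332 and 3786 CPM and SemaLPS cultures 3581, 3150 and 3382 CPM. The groups overlap, since LPS culture 1 lay above Ctrl culture 2, but within each culture number the culture with LPS was the lower in all 3 pairs of both comparisons. In mean level the order was LPS, SemaLPS, Sema, Ctrl. S100A4 fell by 12.9% in LPS against Ctrl (log2 -0.20, SE 0.07, edgeR adjusted p = 0.028).

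That call was lost when cells with up to 20% mitochondrial UMIs were kept (log2 -0.17, adjusted p = 0.0524), when no cell filter was used (-0.18, adjusted p = 0.0654) and without Ctrl culture 1 (adjusted p = 0.1005), Ctrl culture 3 (0.067), LPS culture 2 (0.118) or LPS culture 3 (0.087). The call held with the culture number as a block (log2 -0.20, SE 0.02, edgeR adjusted p = 1.2e-06). With library size alone S100A4 fell by 0.41 on the log2 scale (edgeR adjusted p = 1.7e-04). In SemaLPS against Sema the difference was log2 -0.13 (SE 0.07, adjusted p = 0.131), and it passed with the culture number as a block (log2 -0.13, adjusted p = 1.3e-04), without Sema culture 2 (adjusted p = 0.025) and with library size alone (log2 -0.34, adjusted p = 6.84e-04).

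S100A6, or calcyclin, was low and did not change by these tests. It was at 18.0, 20.8 and 23.4 CPM in Ctrl, at 20.9, 26.6 and 26.6 CPM in Sema, at 15.7, 28.5 and 19.5 CPM in LPS and at 17.4, 21.9 and 22.8 CPM in SemaLPS. All 4 conditions overlap, and the order of their means (SemaLPS, Ctrl, LPS, Sema) has no neighbours that differ beyond their spread. LPS against Ctrl the log2 difference was 0.03 (SE 0.18, edgeR adjusted p = 0.891), with a 95% interval of 0.80 to 1.31-fold, and it turned to -0.17 with library size alone. SemaLPS against Sema it was -0.26 (adjusted p = 0.227), lower in all 3 pairs and passing with the culture number as a block (log2 -0.26, adjusted p = 0.023), in library 2 alone (-0.53, adjusted p = 0.018) and with library size alone (-0.47, adjusted p = 0.03487).

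In count, 5 of the 7 members rose and 1 fell in LPS against Ctrl, where 30.3% of 15057 genes tested rose and 28.8% fell. The members' median log2 difference was 0.48, beside -0.02 over all genes. In SemaLPS against Sema 5 rose and 0 fell by edgeR, beside 30.9% and 30.2% of all genes, with a median of 0.52 beside -0.02. With the culture number as a block, 5 rose and 2 fell there, beside 34.1% of all genes that fell. The LPS comparisons with and without the inhibitor used different cultures but shared 1 fit.

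**Figure D2:**
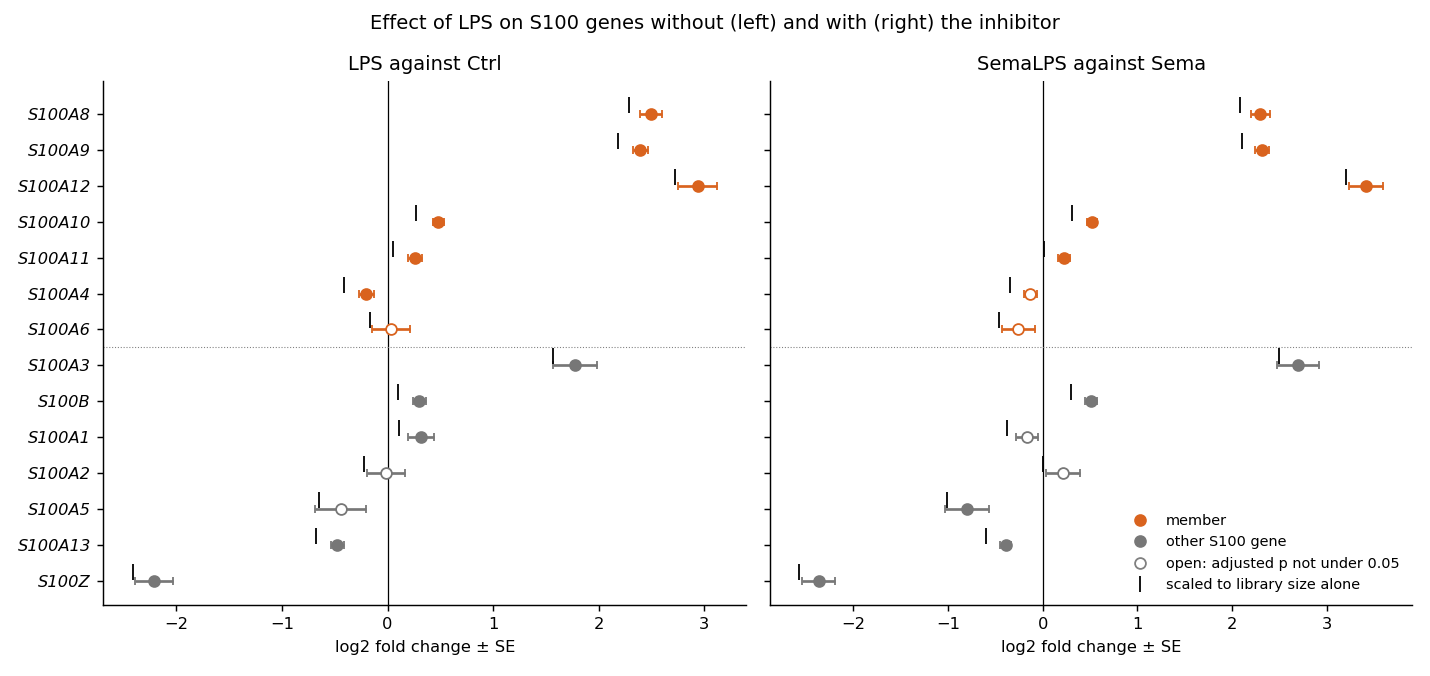
Log2 fold change (± SE) with LPS, without the inhibitor on the left and with it on the right, for the 7 members (orange) and the other S100 genes that passed the filter (grey), open circles for adjusted p not under 0.05 and short vertical lines for the value scaled to library size alone. The calgranulins lie between 2.30 and 3.42, S100A10 near 0.5 and S100A11 near 0.2, and the lines for S100A11 lie near 0.

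The inhibitor changed no member past the threshold. Sema against Ctrl, the log2 differences ran from -0.40 for S100A12 to 0.25 for S100A6, with a lowest adjusted p of 0.722 (S100A9, log2 0.13), and 0.0133% of all genes (2) were called in either direction. With the culture number as a block 3.37% of all genes (508) were called and none of the 7 members, the lowest adjusted p being 0.143 (S100A10, log2 -0.09). The 95% intervals of the fold were widest for S100A12 (0.545 to 1.05) and S100A6 (0.934 to 1.52). They were 0.90 to 1.093 for S100A4, 0.889 to 1.051 for S100A11 and 0.874 to 1.013 for S100A10. Without the block the called pair was HES1 and EGR3, both lower, while the unadjusted p was under 0.05 for 1087 genes and DESeq2 gave 15 calls.

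Under LPS the inhibitor again called no member. SemaLPS against LPS, the members ran from log2 -0.09 (S100A11) to 0.07 (S100A12), with a lowest edgeR adjusted p of 0.910. Of all genes 0.0133% (2, HES1 and DUSP1, both lower) were called, and with the culture number as a block 2.09% (314), where S100A11 came closest with an adjusted p of 0.0894. The members' 95% intervals reached from 0.764-fold to 1.27-fold.

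S100A8, S100A9 and S100A6 were slightly higher and S100A10, S100A11 and S100A12 slightly lower in all 3 pairs of Sema against Ctrl, none past the test. In SemaLPS against LPS S100A10 and S100A11 were again lower and S100A4 was higher in all 3 pairs, also not past the test. The pairs of S100A6, S100A8, S100A9 and S100A12 were mixed there. The test of the difference between the LPS effects with and without the inhibitor called 0.0% of all genes (0 by edgeR, 551 at an unadjusted p under 0.05, 1 by DESeq2) and 0.0664% (10) with the block. None of the members was among them, with log2 differences from -0.29 (S100A6) to 0.48 (S100A12) and a lowest blocked adjusted p of 0.520. For S100A12 the 95% interval of that ratio of effects was 0.953 to 2.03. Of the 293 S100A12 UMIs in Ctrl and Sema cells, 31 lay in 2 cells, so its resting values lean on few cells.

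The share of cells with at least 1 UMI was compared after each cell was thinned to 10000 UMIs, which left out 79 of 3178 Ctrl, 94 of 3942 Sema, 87 of 3624 LPS and 140 of 4089 SemaLPS cells. S100A9 was found in 61.7%, 63.9% and 62.7% of cells in the Ctrl cultures and in 85.1%, 84.6% and 82.6% in LPS. Its UMIs per positive cell went from 2.87 ± 0.13 to 10.2 ± 0.30 (SD, n = 3). Both the number of positive cells and the UMIs in them were thus higher with LPS.

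S100A8 was found in 23.3%, 29.01% and 29.27% of Ctrl cells and in 56.2%, 59.8% and 58.5% of LPS cells, with 1.75 ± 0.19 and 4.30 ± 0.23 UMIs per positive cell. S100A12 went from 1.84% ± 0.15 to 8.63% ± 1.07 of cells, with 1.02 and 1.29 UMIs per positive cell. S100A10 was in 93.3% ± 0.28 of Ctrl and 95.5% ± 0.93 of LPS cells. S100A4 and S100A11 were found in at least 99.9% of the cells of every culture, so their share carries no difference. S100A4 averaged 40.4 ± 2.8 UMIs per positive cell in Ctrl and 30.4 ± 2.4 in LPS, and S100A11 averaged 30.9 ± 1.3 and 31.9 ± 0.94. These thinned values follow library size, without the TMM factor.

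Under the inhibitor LPS gave like shares: S100A9 went from 64.6% ± 2.0 to 85.3% ± 2.6, S100A8 from 30.0% ± 2.0 to 58.1% ± 3.1, S100A12 from 1.22% ± 0.26 to 9.19% ± 1.246 and S100A10 from 91.5% ± 1.3 to 95.9% ± 1.5. Those 4 of 7 members were higher without overlap between cultures in both LPS comparisons. Of all 15057 genes, thinned in a draw of their own, 14.4% were higher without overlap in LPS against Ctrl and 15.4% in SemaLPS against Sema. A two-sided exact permutation test of 3 against 3 cultures cannot go below p = 0.1, and the 28 tests of 7 members in 4 comparisons reached p = 0.1 at best, adjusted 0.28. In Sema against Ctrl, S100A10 and S100A12 were lower without overlap (exact permutation p = 0.1, adjusted 0.28), as were 6.18% of all genes. The 2 became 0 at 5000 UMIs, without thinning and in library 2 alone, and 4 without Sema culture 1. In SemaLPS against LPS 0 of 7 separated, beside 9.7% of all genes in either direction.

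Without thinning S100A9 was in 80.6% to 85.8% of cells in cultures without LPS and 91.6% to 94.5% with it. Unthinned shares of S100A8 were 47.3% to 53.2% and 72.8% to 77.4%, and those of S100A12 2.76% to 4.21% and 17.8% to 22.7%. Since cells of all cultures were pooled in the same droplet runs, RNA from cells with LPS can enter droplets of other cells. TNIP3, the gene with the lowest Ctrl level relative to LPS (1.32%) among 1379 genes of at least 100 CPM in LPS, gave a UMI in 0.966% to 1.955% of thinned cells without LPS and 38.0% to 50.8% with it. The Ctrl level relative to LPS was 17.7% for S100A8, 19.0% for S100A9 and 13.02% for S100A12. TNIP3 was picked for the lowest such level, so S100A8 and S100A9 lie above it by that choice. S100A12, at under 100 CPM in LPS, was not among the 1379 genes. The part of such RNA in the resting calgranulin counts was not tested. The share of resting cells with S100A12 (0.92% to 1.93%) overlapped that of TNIP3. In LPS cultures TNIP3 was at 104 CPM and S100A12 at 11.7 CPM, so these shares are not on a like scale. No difference between Sema and Ctrl is read from the S100A12 share.

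**Figure D3:**
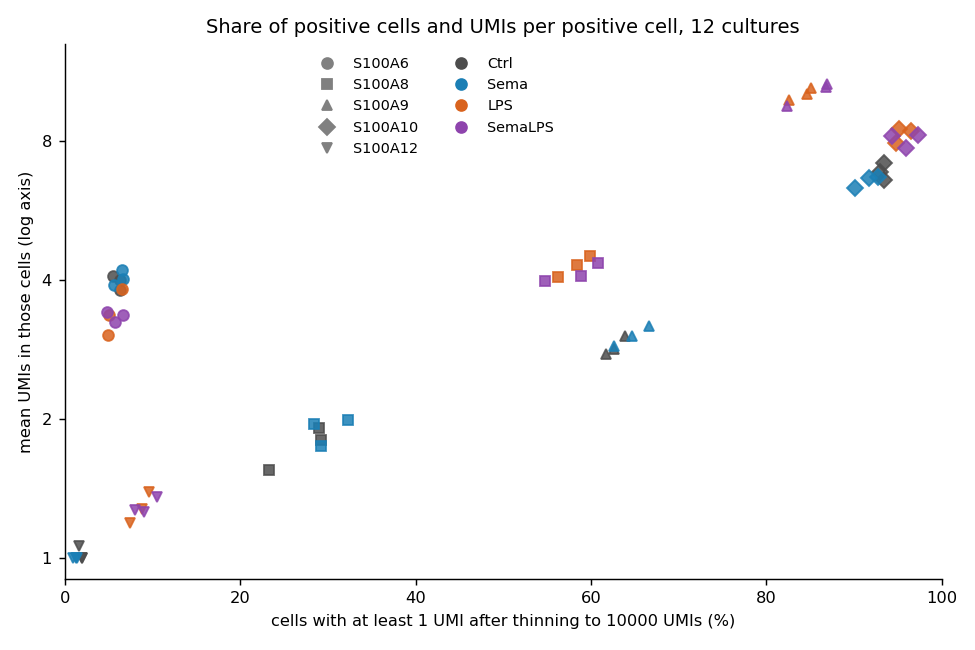
Share of cells with at least 1 UMI after thinning to 10000 UMIs (x axis, %) against the mean UMIs in those cells (y axis, log scale), 1 point per culture and gene. S100A9 and S100A8 move right and up with LPS, S100A12 moves from 1.84% to 8.63% of cells, and the S100A6 points stay between 4.85% and 6.63% of cells.

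In the cultures with LPS, cells in which S100A9 was detected also held S100A8 and S100A12 more often than other cells did. In these 6 cultures S100A8 was detected in 62.9% to 67.4% of S100A9-positive and 16.3% to 22.0% of S100A9-negative thinned cells. S100A12 was detected in 9.23% to 13.6% of S100A8-positive and 2.97% to 6.48% of S100A8-negative cells. The pattern was not particular to S100 genes: TNIP3 was in 44.6% to 58.8% and 26.9% to 44.8% of these cells. When the cells of each such culture were divided into 4 equal bins by their S100A9 UMIs, S100A12 was in 1.03% to 3.10% of the lowest bin and in 15.9% to 19.7% of the highest. S100B, an S100 gene on another chromosome that is best known from astrocytes, went from 1.16 to 1.70 UMIs per cell in the lowest bin to 2.61 to 3.39 in the highest. S100A4 stayed at 27.2 to 34.1 UMIs in the lowest and 28.4 to 35.3 in the highest bin, and S100A10 at 6.87 to 7.96 and 7.20 to 8.46. In the 6 cultures without LPS, S100A8 was detected in 26.9% to 40.1% of S100A9-positive and 14.5% to 21.1% of S100A9-negative cells, while S100A12 was in 0.968% to 2.45% and 0.826% to 1.878% of them, lower in the S100A9-positive cells of Sema culture 1. These are descriptions of cells, which are not replicates.

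Clusters were made without any S100 gene, and they are given by number. Their CPM were scaled by library size alone, without the TMM factor. Among clusters made up almost wholly of cells with LPS, cluster 0, led by CCL8, TIFAB, CXCL10, TNIP3 and LTB, held the most calgranulin RNA among those of full depth: 1160 CPM of S100A9, 331 CPM of S100A8 and 16.1 CPM of S100A12. Cluster 1, led by MMP7, CCL1 and CCL22, held 357, 129 and 4.82 CPM. Cluster 2, led by IL23A, CCL20 and IL1B, held 624, 157 and 7.54 CPM, and cluster 7, with the cell division genes UBE2C and MKI67, held 842, 199 and 10.3 CPM. In each of the 6 cultures with LPS S100A9 ran in the order 0, 7, 2, 1 from high to low. In cluster 1 the lowest culture still had 292 CPM, above the 229 CPM of the highest resting cluster and culture.

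In the clusters of resting cells S100A9 was at 184 CPM in cluster 3 (TMC7, P2RY12 and GPR34), 136 CPM in cluster 4 (FABP4, CRABP2 and TIMP3), 205 CPM in cluster 5 (APOC2, P2RY13 and IGF1) and 208 CPM in cluster 6 (TOP2A and MKI67). Cluster 4 had the highest S100A11 (4477 CPM) and S100A10 (877 CPM) among clusters of full depth, and the dividing clusters 6 and 7 the lowest S100A11 (2346 and 2336 CPM). S100A4 was lowest in cluster 2 (2627 CPM). With the finer Leiden resolution of 1.0 a resting cluster of 279 cells, numbered 11 there and led by ADAMTS6, SAMD11, VCAN and LEF1, had 52.1 CPM of S100A9 and 17.2 CPM of S100A8 at a median of 22135 UMIs. Its S100A10 was at 986 CPM, above that of every other cluster of full depth at that resolution. The other resting clusters of full depth there had 130 to 215 CPM of S100A9, and those with LPS 387 to 1347 CPM. Cluster 8, 85 cells with a median of 4918 UMIs against 23856 or more elsewhere, had 1453 CPM of S100A9 and 33.4 CPM of S100A12 and is left unnamed. At a finer resolution 54 shallow resting cells held 10.58% of the S100A12 UMIs of all resting cells, in 2 cells. Their cluster was led by LUM, CLC, FRZB, COL3A1, TFPI2, KRT19, SPON2, CPA3, TMEM88 and MGP. LUM and COL3A1 are on the fibroblast list, KRT19 on the epithelial one and CPA3 on the mast cell one. Without the shallow clusters the LPS effects were log2 3.27 for S100A12, 2.57 for S100A8 and 2.41 for S100A9, all called by edgeR.

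**Figure D4:**
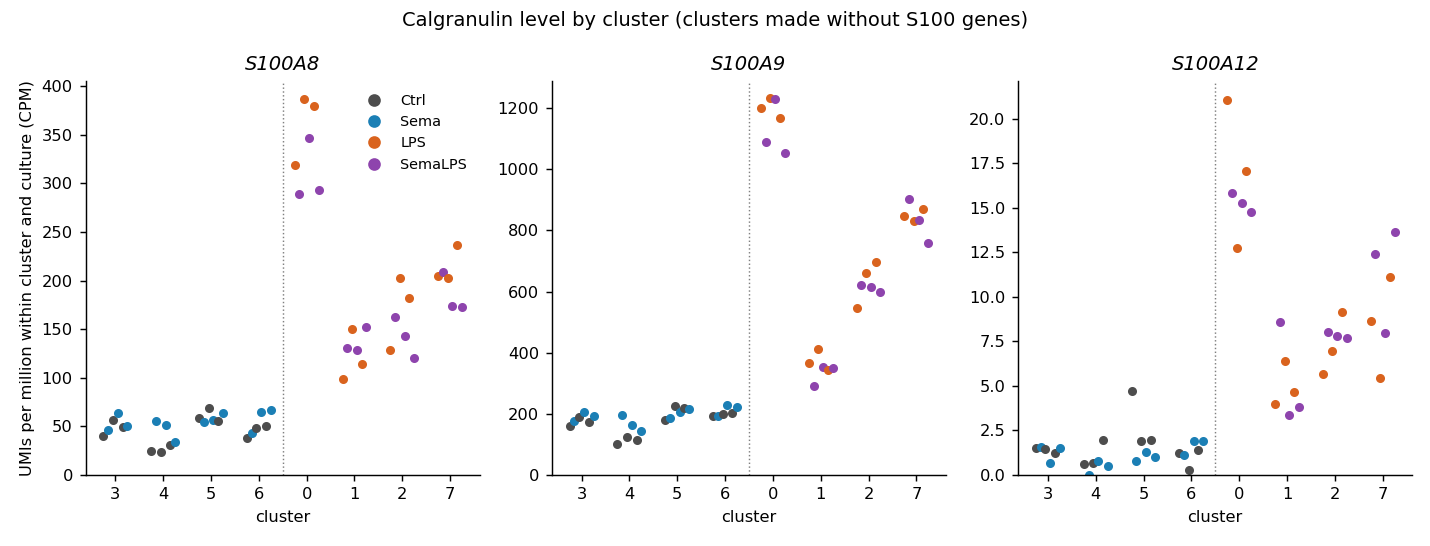
Level of the calgranulins in CPM (linear axes from 0, no TMM factor) by cluster, 1 point per culture with at least 20 cells there; resting clusters are left and LPS clusters right of the dotted line. In the LPS clusters S100A9 is highest in cluster 0 and lowest in cluster 1 in all 6 cultures.

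S100A6 was concentrated in few cells. Of 14833 cells, 13682 (92.24%) had no S100A6 UMI, 415 (2.8%) had 1 or 2, and 736 (4.96%) had 3 or more and carried 95.25% of all its UMIs; 401 cells (2.7%) with 10 or more carried 75.05%. After thinning, S100A6 was in 6.03% ± 0.48 of cells in Ctrl, 6.26% ± 0.56 in Sema, 5.51% ± 0.87 in LPS and 5.71% ± 0.87 in SemaLPS (SD, n = 3), with 3.96, 4.04, 3.41 and 3.34 UMIs per positive cell. The share was 4.99% to 6.59% in every cluster of full depth, and 4.71% to 8.96% at the finer resolution.

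These 848 S100A6-positive cells, 56 to 106 per culture, were compared with the 13585 others after summing UMIs per culture, with culture as a block in edgeR. The comparison was chosen after the distribution had been seen. Of 12697 genes tested 0.843% (107) were higher and 1.07% (136) lower in the positive cells. On chromosome X 41 of 428 genes tested (9.58%) were lower and 7 higher, while on the other chromosomes 0.244% to 1.73% of genes were lower. The median share of a cell's UMIs that came from chromosome X was 4.50% to 5.25% in positive and 4.98% to 5.35% in other cells, lower in 12 of 12 cultures by 0.047 to 0.503 percentage points.

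Among the X-linked genes SMS, spermine synthase, was at 357 CPM in positive and 567 CPM in other cells, lower in 12 of 12 cultures (log2 -0.67, SE 0.02, edgeR adjusted p = 6.4e-20). ACSL4 (log2 -0.51), a fatty acid activating enzyme, MORF4L2 (-0.57), AIFM1 (-0.60), a mitochondrial oxidoreductase, and IL13RA1 (-0.37), a subunit of the interleukin 13 receptor, were also lower in 12 of 12 cultures. Elsewhere CAT, catalase, was at 47.5 against 23.8 CPM, higher in 12 of 12 cultures (log2 0.99, adjusted p = 9.9e-14). The formyl peptide receptors FPR3 (log2 1.06) and FPR1 (0.74) and ANXA1 (0.39) were higher in 11 of 12 cultures, and SP140 (-1.22) and LSP1 (-0.43) were lower in 12 of 12.

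Of 12 S100 genes tested, S100A10 (log2 0.27, SE 0.03, adjusted p = 1.5e-06) and S100A4 (0.10, SE 0.02, adjusted p = 0.0018) were higher and S100B (-0.45, SE 0.07, adjusted p = 4.3e-05) lower in S100A6-positive cells. S100A8 (log2 -0.06), S100A9 (-0.11) and S100A12 (0.06) passed no threshold. With 3 or more UMIs as the criterion 330 genes were called (40 lower on chromosome X), in library 1 alone 79 (26) and in library 2 alone 83 (29). The positive cells of a culture had a median of 26081 to 33529.5 UMIs, the others 27661 to 31825, and mitochondrial shares of 7.71% to 8.47% and 7.8% to 8.4%. Doublets within a culture are not seen by hashtags and their part was not tested.

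**Figure D5:**
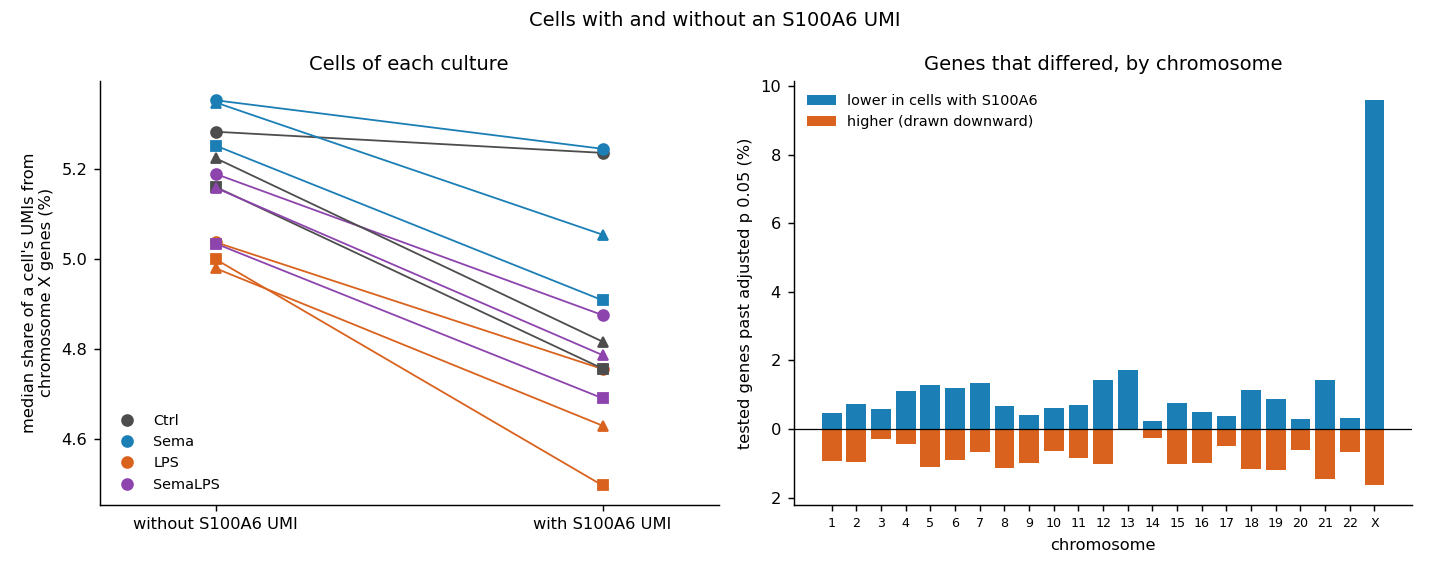
Left, the median share of a cell's UMIs from chromosome X genes (%) in cells without and with an S100A6 UMI, 1 line per culture, colour for condition and marker shape for culture number; the axis does not start at 0. Right, the share of tested genes per chromosome past adjusted p 0.05 in edgeR, lower in S100A6-positive cells upward and higher downward; chromosome X stands at 9.58% lower.

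Of the 14 other S100 genes listed, 7 passed the filter, 5 (S100A7, S100A7A, S100A7L2, S100A14 and S100G) had 0 UMIs and none of the other 2, S100A16 and S100P, had more than 71. S100B, the most counted of them, was at 155.8, 160.0 and 180.2 CPM in Ctrl and 214.5, 185.3 and 212.0 CPM in LPS. In LPS against Ctrl S100B (log2 0.30, edgeR adjusted p = 0.0013), S100A1 (0.32, adjusted p = 0.0405) and S100A3 (1.78, adjusted p = 5.3e-06) rose, and S100Z (-2.21, adjusted p = 1.6e-07) and S100A13 (-0.47, adjusted p = 1.1e-05) fell. S100A2 and S100A5 did not pass. With library size alone S100B (0.09) and S100A1 (0.11) lost their call and S100A5 (-0.65, adjusted p = 0.029) gained one.

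In SemaLPS against Sema, S100A3 (log2 2.70) and S100B (0.51) rose, and S100Z (-2.36), S100A13 (-0.39) and S100A5 (-0.80) fell. S100A1 (-0.17, edgeR adjusted p = 0.252) and S100A2 did not pass. With library size alone S100A1 was called lower (-0.38, adjusted p = 0.0183). The difference of its LPS effects was -0.48 (edgeR adjusted p = 0.99995), which did not pass. S100Z had 5.31, 4.37 and 5.93 CPM in Ctrl and 0.94, 1.51 and 0.94 CPM in LPS, with no overlap. S100A3 had only 10 or 11 UMIs in each Ctrl culture and shares its sequence span with S100A4, and S100A13 overlaps S100A1 on the opposite strand, so both are given as uncertain. The listed genes that passed had a median of -0.01 in LPS against Ctrl, beside -0.02 over all genes.

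The genes around the members were read from lists. For comparison with every list, 30.3% of all 15057 genes rose and 28.8% fell in LPS against Ctrl. In SemaLPS against Sema 30.9% rose and 30.2% fell. With library size alone 2464 genes rose and 7016 fell in LPS against Ctrl, and 2577 and 7244 in SemaLPS against Sema. Of 9 receptors and co-receptors of released S100 proteins, 4 rose and 4 fell with LPS, a median of log2 0.12 (library size alone, 3 and 4). CD14 (log2 1.154) and NPTN, neuroplastin, a receptor of S100A8 (0.53), rose, and LY96, the TLR4 partner protein (-0.46), fell, with edgeR adjusted p-values of 2.0e-07, 7.5e-09 and 7.5e-06. TLR4 itself rose by log2 0.27 (adjusted p = 9.3e-05) and lost its call with library size alone (0.06, adjusted p = 0.2811). AGER rose by log2 0.65 (adjusted p = 0.0055).

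Of 9 transcription regulators linked to calgranulin genes 6 rose and 3 fell in both LPS comparisons, with the same counts under library size alone and a median of 0.76 in LPS against Ctrl. NFKB1 (log2 2.69), CEBPD (2.52), CEBPB (1.38) and SPI1 (0.85) rose, and CEBPA (-2.62) and KLF4 (-1.02) fell. The letters TTNNGNAA, a loose form of the C/EBP motif, occur in the windows of S100A8, S100A9 and S100A12, but also in those of S100A6 and S100A11 and in 33.2% of all promoter windows. A κB-like motif (GGG, then 2 free bases, TT, 1 free base and CC), present in 5.07% of all windows, was found in none of the members' windows.

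All 8 annexins listed were called in LPS against Ctrl, 4 up and 4 down, beside 30.3% and 28.8% of all genes (library size alone, 3 and 4). ANXA3 (log2 1.63), ANXA7 (0.80) and ANXA2 (0.43, adjusted p = 4.0e-05), the partner of S100A10, rose, and ANXA1 (-0.22, adjusted p = 0.0432), the partner of S100A11, fell. In SemaLPS against Sema 4 annexins rose and 2 fell, ANXA2 by log2 0.49 and ANXA1 by -0.15, which did not pass (adjusted p = 0.134). With library size alone 3 rose and 4 fell there, ANXA1 among the latter (log2 -0.37, edgeR adjusted p = 8.6e-04). Of 11 intracellular partners 2 rose and 3 fell (library size alone, 1 and 7). NCF1, a subunit of the phagocyte NADPH oxidase, rose by log2 3.15, and NCF4, another (-0.62), and the S100P-binding protein gene S100PBP (-0.54) fell; NCF1 has near-identical pseudogenes, so its count is uncertain.

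Of 12 monocyte genes often read with calgranulins, 3 rose, 4 fell and 5 did not pass in LPS against Ctrl, with a median of 0.06. THBS1 (log2 3.97) and LTB (2.17) rose, and MNDA (-1.55) fell. Of 9 other EF-hand genes, 4 rose and 4 fell (library size alone, 2 and 5), SRI (1.47) and PLSCR1 (1.45) among the former and CALM2 (-0.84) among the latter. In both inhibitor comparisons edgeR called 0 genes of each of these lists, and 0 to 4 per list with the culture number as a block. With that block 3.37% of all genes were called in Sema against Ctrl and 2.09% in SemaLPS against LPS.

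Over the 12 cultures, 5271 genes of at least 20 CPM were ranked by the Pearson correlation of their log2 CPM with each member. Nearest to S100A9 were TLR2, AHR and MARCKS (r = 0.999 for each), to S100A8 DSE, RNF144B and RASGRP1 (0.997 each), and to S100A12 DYNC1LI1 (0.998), TFG and ALG2. S100A10 was nearest to TIMMDC1 (0.995), GABARAPL2 and CHMP5, and S100A11 to SH3GLB1 (0.985), GUK1 and PLAUR. S100A4 came with ALOX5AP (0.958), NDUFB1 and TMEM256, and S100A6 with LENG8 (0.912), BTBD1 and BABAM2. The cultures fall into those with and without LPS, so a high r for a gene that rose describes that division more than it does a likeness within it.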

How the data were processed

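The authors' deposited counts are whole UMIs per gene and hashtag per barcode, written by Cell Ranger 6.0.1 per the file headers; the submitters' processing notes name Cell Ranger 3.0.2, Seurat 4.1.1 and hg38. A barcode was given to a culture when 1 hashtag passed a threshold per library (k-means with 13 clusters, 99th percentile of background counts, top 0.5% left out); 6847 barcodes (23.66%) with several hashtags were removed as doublets and 472 had none. Cells with fewer than 1000 genes or over 10% mitochondrial UMIs were left out. No other doublet caller was run.

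For each culture the UMIs of libraries 1 and 2 were added. The sums of the 12 cultures went into 1 quasi-likelihood fit on condition (edgeR 4.0.16 under R 4.3.3) after filterByExpr and TMM, with Benjamini-Hochberg adjustment across 15057 genes and a threshold of 0.05. SE was approximated from the log2 difference and its F statistic. The 95% intervals took that SE with the normal distribution, so they can be narrower than the edgeR test implies. DESeq2 1.42.0 was an alternative, with others given in the closing section. The scripts were tested on simulated data. Clusters used scanpy 1.11.5 (2000 variable genes, 30 components, 15 neighbours, Leiden resolution 0.5). The share of all genes tested whose positive-cell shares did not overlap was counted after the members' counts were seen. Gene positions were found for 34616 of 36601 genes (94.58%).

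The culture numbers pair the cultures in these data: over 5279 genes, deviations from the condition mean correlated at 0.447 to 0.745 in all 18 pairs with the same number and at -0.563 to 0.168 otherwise, and 12 of 12 cultures correlated best with their own number. Since its meaning is not given in the labels, the block was kept as an alternative.

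The members and the gene lists were chosen with earlier results of these data known. Named were all members, every other S100 gene that passed the filter, up to 3 genes per list with the smallest adjusted p, and the 3 most alike genes per member. TLR4, AGER, CEBPB, CEBPA, KLF4, ANXA1 and the genes of the S100A6-positive cells were added after their values were seen. Protein sequences were not used here.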

Additional observations from a re-analysis of the deposited data

How the results depend on the processing

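Over 24 alternatives (23 for the difference of LPS effects) the number of members called stayed at 0 in both inhibitor comparisons and in the difference of effects, was 5 to 6 in LPS against Ctrl and 5 to 7 in SemaLPS against Sema. S100A8, S100A9, S100A12 and S100A10 kept direction and call in both LPS comparisons in all of them; S100A8 ranged over log2 2.29 to 2.58 and S100A9 over 2.19 to 2.44 in LPS against Ctrl. The replicate block moved the count of all genes called from 2 to 508 in Sema against Ctrl, from 2 to 314 in SemaLPS against LPS and from 0 to 10 in the difference of effects; among the members it changed the calls of S100A4 (adjusted p = 1.3e-04) and S100A6 (adjusted p = 0.023) in SemaLPS against Sema and no other call. S100A4 in SemaLPS against Sema also passed with no filter on low counts (edgeR adjusted p = 0.0473).

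Values that turned sign were small and passed no test: S100A4 in Sema against Ctrl was 0.0189 in library 2 alone, 0.0012 with up to 20% mitochondrial UMIs and 0.0033 with no cell filter; S100A6 in LPS against Ctrl was -0.1449 in library 2 alone and -0.1701 with library size alone; S100A6 in SemaLPS against Sema was 0.0084 in library 1 alone; and the S100A10 difference of effects was -0.0295 in library 2 alone, -0.0050 with up to 20% mitochondrial UMIs and -0.0002 with no cell filter. The cause was not tested.

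Leaving out 1 culture at a time moved S100A4 over -0.0662 to 0.0599 and S100A11 over -0.0967 to 0.0018 in Sema against Ctrl, S100A6 over -0.2308 to 0.2101 in LPS against Ctrl, S100A6 over -0.2103 to 0.2313, S100A8 over -0.1014 to 0.0027 and S100A12 over -0.0605 to 0.2012 in SemaLPS against LPS, and the difference of effects over -0.0038 to 0.1358 for S100A4, -0.0124 to 0.0785 for S100A10 and -0.0894 to 0.0190 for S100A11 (log2); S100A4 in LPS against Ctrl stayed between -0.2633 and -0.1515 and in SemaLPS against Sema between -0.2079 and -0.0810. The number of members whose shares of positive cells did not overlap was 2 in Sema against Ctrl (beside 11.9% of all genes in either direction), and 0 at 5000 UMIs, 0 without thinning and 0 in library 2 alone (10.8% to 12.1% of all genes there); leaving out 1 culture gave 2 to 4 there and 0 to 1 in SemaLPS against LPS (1 without LPS culture 3 or SemaLPS culture 3), where 19.7% to 27.1% and 17.3% to 21.7% of all genes did so. At rest S100A12 rests on 40 to 63 UMIs per Ctrl culture, which limits how small a change could be seen.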
